A study of Mus musculus with 2 samples.

Results

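The data cover 6 regulators of the mesendoderm, T, Eomes, Mixl1, Gsc, Mesp1 and Tbx6, in mouse embryonic stem cells (ESCs) with and without Uhrf1. These genes were taken because they are known regulators of the primitive streak and of the mesoderm, out of 22367 protein-coding genes on chromosomes 1 to 19, X and Y in the GENCODE vM1 annotation. Every peak of accessible chromatin whose middle lay in one of these genes or within 50 kb on either side was placed by its distance to the nearest transcription start site (TSS) of that gene. The windows held 42 of 71914 peaks of the wild-type (WT) library and 39 of 61640 peaks of the Uhrf1 knockout (KO) library.

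The assay was ATAC-seq, in which a transposase cuts and tags DNA wherever nucleosomes do not cover it. The groups were undifferentiated mouse ESCs of the E14 line with WT genotype and undifferentiated Uhrf1 KO ESCs, which the labels also call E14, and 50000 cells were lysed for each. Cells of both genotypes grew in serum with leukemia inhibitory factor, on gelatin or on plates coated with mouse embryonic fibroblasts (MEFs). Each genotype had 1 library, so genotype, culture and library preparation cannot be told apart. No test between the genotypes was possible, and every difference below is between these libraries. The lists give positions of peaks, all 101 bp wide except 1 KO peak of 86 bp, and hold no read counts, so the depth behind a peak is unknown. Uhrf1 itself had 2 WT and 3 KO peaks within 2 kb of its TSS, and such peaks do not show whether the gene was disrupted, so they do not check the genotype. Intervals given with counts are exact Poisson 95% intervals and those given with percentages are exact (Clopper-Pearson) binomial 95% intervals, and both cover counting error only. They treat peaks as independent, although neighbouring peaks of a list can overlap or adjoin, so they may be too narrow where peaks cluster.

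In the gastrulating embryo, Nodal and Wnt signals induce the primitive streak, where cells switch on T-box and homeobox transcription factors and leave the epiblast as mesoderm or definitive endoderm. Undifferentiated ESCs mostly keep these genes silent, and many of their promoters carry activating and repressive histone marks together. Uhrf1 binds hemimethylated DNA and recruits Dnmt1, which maintains DNA methylation through cell division.

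A peak of 1 library was said to have a partner when a peak of the other library lay within a gap of at most 100 bp between their ends. Other distances between peaks are given from middle to middle, and are larger than the gap. Over the whole lists, 32.1% of WT peaks (23049 of 71914) and 24.6% of KO peaks (15174 of 61640) had no partner. In the windows of the 6 regulators, 11 of 42 WT peaks had no KO partner (26.2%, interval 13.9 to 42.0%). Of the 39 KO peaks in the windows, 7 had no WT partner (17.9%, interval 7.54 to 33.5%). Both intervals held the percentage of the whole list. When partners had to share at least 50% of both peaks, 47.6% of WT and 41.0% of KO peaks in the windows had none, beside 50.2% and 42.4% of the whole lists. The window of Tbx6 weighed on the values for the 100 bp gap, because it held 16 WT and 14 KO peaks and all of them had a partner. Without it, 11 of 26 WT peaks (42.3%, interval 23.4 to 63.1%) and 7 of 25 KO peaks (28.0%, interval 12.1 to 49.4%) in the other windows had none. Among peaks whose nearest protein-coding TSS was that of the regulator itself, 8 of 18 WT peaks had no partner (44.4%, interval 21.5 to 69.2%). The KO value was 6 of 17 (35.3%, interval 14.2 to 61.7%). These intervals too held the percentage of the whole list.

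The lists differed in length, and the names of the peaks carry a number within each chromosome whose meaning is not given in the sources used here. Peaks with higher numbers had a partner less often: of WT peaks, 0.334% had none in the lowest decile of these numbers and 65.7% in the highest, and of KO peaks 0.715% and 53.5%. When the WT list was shortened to the 61640 peaks of the KO list by leaving out the highest numbers, 30 WT peaks remained in the windows. Of these, 5 had no KO partner (16.7%, interval 5.64 to 34.7%), while 11 of the 39 KO peaks then had no WT partner (28.2%, interval 15.0 to 44.9%). The order of the libraries was turned around in this setting. It leaves out the WT peaks that most often had no partner as it shortens the list, and the part of length alone was not tested. Only the WT list was cut, so WT counts could only fall. WT peaks of the windows stood late among the name numbers, at a median of 52.0% with and 88.5% without a partner. Over all WT peaks these medians were 35.8% and 73.9%. With lists of equal length, 26.6% of all WT peaks and 28.8% of all KO peaks had no partner.

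T had 3 WT peaks and 3 KO peaks (interval 0.619 to 8.77 for each), and Mixl1 had 4 and 4 (interval 1.09 to 10.2 for each). Gsc had 7 WT peaks and 7 KO peaks (interval 2.81 to 14.4 for each). Eomes had 8 WT peaks (3.45 to 15.8) and 9 KO peaks (4.12 to 17.1), Mesp1 had 4 (1.09 to 10.2) and 2 (0.242 to 7.22), and Tbx6 had 16 (9.15 to 26.0) and 14 (7.65 to 23.5). The intervals of the libraries overlapped for each of the 6 genes. The WT count was the higher in 2 of 6 windows and the KO count in 1, while 56.7% of all protein-coding genes had more WT peaks and 23.3% more KO peaks in windows of the same kind. With lists of equal length this tally was turned around, with the KO count the higher in 4 windows, T, Eomes, Mixl1 and Gsc, and the WT count in that of Tbx6 alone, while Mesp1 had 2 peaks of each. Gsc then had 3 WT and 7 KO peaks and Mixl1 2 and 4. Over all protein-coding genes, 44.0% then had more WT peaks and 33.5% more KO peaks. The tallies between the libraries with lists of equal length, here and at TSSs, were chosen after seeing the data. The median of the 6 windows was 5.50 peaks in each library, beside medians of 7 WT and 5 KO peaks over all protein-coding genes. Tbx6 stood high in that range, with 89.4% of genes having fewer WT peaks and 91.4% fewer KO peaks, and T stood low, with 21.7% and 25.6% having fewer. Mesp1 stood lower than T in KO, with 16.8% of genes having fewer KO peaks, and higher than T in WT, with 28.4%.

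**Figure D1:**
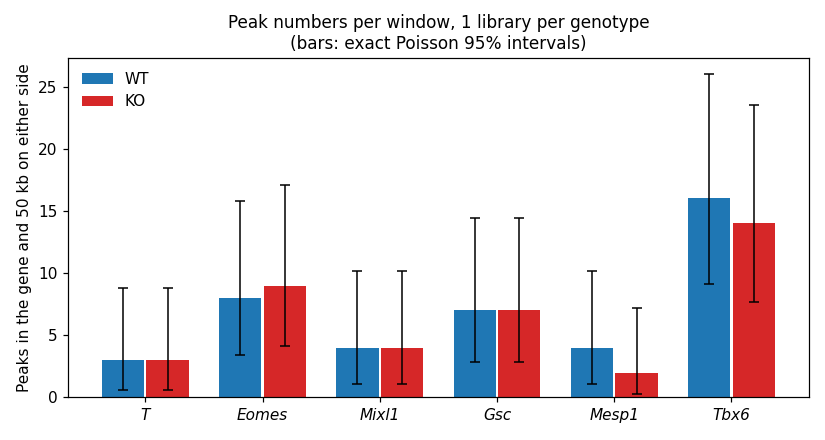
Number of ATAC-seq peaks in each gene and 50 kb on either side, for the WT library (blue) and the Uhrf1 KO library (red), with exact Poisson 95% intervals as error bars. The numbers run from 3 WT peaks at T to 16 at Tbx6 and from 2 KO peaks at Mesp1 to 14 at Tbx6, and the intervals of both libraries overlap at every gene.

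A WT peak lay within 2 kb of a TSS at all 6 regulators and a KO peak at 4 of 6, Eomes, Mixl1, Gsc and Tbx6. Over all protein-coding genes, 63.6% had a WT peak and 58.7% a KO peak at this distance. T and Mesp1 had a WT peak and no KO peak there, as did 6.64% of all protein-coding genes, or 10.4% of the 14231 genes with a WT peak at a TSS. No regulator had a KO peak alone at its TSS, as 1.73% of all genes did, or 2.95% of those with a KO peak at a TSS. Together the 6 genes had 12 WT and 7 KO peaks within 2 kb of their TSSs, and 5 of them had more WT than KO peaks there, while Tbx6 had 1 of each. Of all protein-coding genes, 33.2% had more WT peaks at the TSS and 13.0% more KO peaks. With lists of equal length, where WT counts could only fall, the excess of WT peaks at the 6 genes was gone, with 7 WT and 7 KO peaks at their TSSs. Mesp1 then had more WT peaks and Eomes more KO peaks (3 and 4), and the other genes had as many of each, while 28.2% of all protein-coding genes had more WT and 15.5% more KO peaks at the TSS.

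Of the 12 WT peaks at these TSSs, 6 had no KO partner (interval 21.1 to 78.9%), beside 25.6% of all WT peaks within 2 kb of a protein-coding TSS. Of the 7 KO peaks, 1 had no WT partner (14.3%, interval 0.361 to 57.9%), beside 8.91% of all KO peaks at such distances. With lists of equal length, 2 of 7 WT peaks, those of Mixl1 and Mesp1, had no KO partner (28.6%, interval 3.67 to 71.0%), beside 21.5% of all WT peaks at TSSs. The KO value was then 1 of 7 as before, beside 11.1% of all KO peaks at TSSs. These values with lists of equal length were added once the data had been seen. The count of TSSs with a peak depended on distance and list length. Within 1 kb, a WT peak was present at 5 regulators, all but Tbx6, and a KO peak at 2, Eomes and Gsc, beside 61.6% and 56.4% of all protein-coding genes. With lists of equal length, the WT peak at the TSS of T was among those left out, so that T then had no TSS peak in either library and Mesp1 alone had a WT peak without a KO peak, as did 8.78% of the 13812 protein-coding genes with a WT peak at a TSS in those lists.

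**Figure D2:**
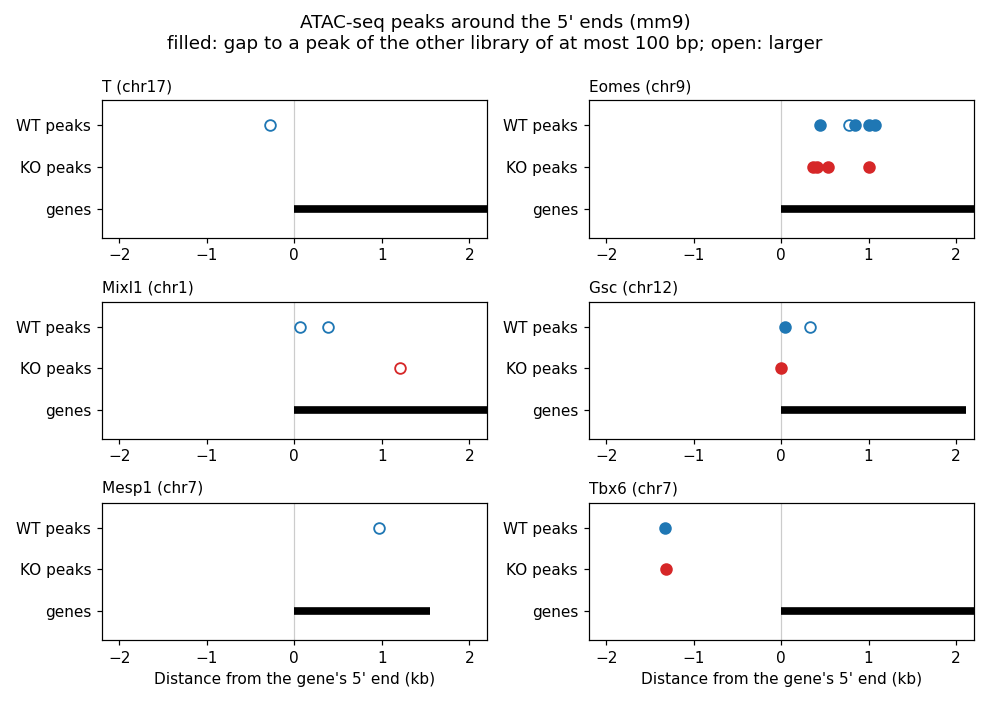
Positions of WT (blue) and KO (red) ATAC-seq peaks within about 2 kb of the 5′ end of each gene in mm9, in kb along the gene's strand, with the gene as a black bar. Points mark the middles of peaks, filled where the gap to a peak of the other library was at most 100 bp between their ends and unfilled where it was larger. T and Mesp1 show 1 WT peak each and no KO peak, and the peaks of Mixl1 are unfilled in both libraries.

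T (Brachyury), the T-box factor that drives formation of posterior mesoderm and notochord, lies on the plus strand at chr17:8627288-8635361 in mm9. Its WT peak nearest to a TSS was intergenic, 278 bp upstream (chr17:8626960-8627060), and a further WT peak lay 4273 bp upstream (chr17:8622965-8623065). Neither had a KO partner, and the nearest KO peaks were 29515 and 33510 bp away. Their name numbers were in the highest decile and in the eighth decile, in which 65.7% and 54.6% of all WT peaks had no partner. Downstream of the gene, KO peaks without a partner lay 28735 and 28815 bp from the TSS (chr17:8656475-8656575 and chr17:8656555-8656655). A position farther downstream was shared, with the KO peak at 33948 bp and the WT peak at 33967 bp. That shared peak stood early among the WT name numbers of its chromosome, at 29.4% of the list, and late among the KO numbers, at 90.5%.

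The sequences of T show the WT peak at the promoter, where 70.5% of the central 200 bp was G or C with 20 CpGs, and the shared downstream peak, with 57.5% and 8 CpGs. Both are on the plus strand of mm9 and are in lower case because they hold none of the motifs searched.
T upstream, WT, chr17:8626960-8627060: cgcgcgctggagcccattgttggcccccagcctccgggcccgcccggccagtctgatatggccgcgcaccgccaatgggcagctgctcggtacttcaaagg
T downstream, WT and shared, chr17:8661707-8661807: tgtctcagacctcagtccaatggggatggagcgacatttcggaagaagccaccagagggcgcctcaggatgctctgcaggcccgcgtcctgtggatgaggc

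Eomes, a T-box factor needed for definitive endoderm and for the exit of mesoderm from the streak, lies on the plus strand at chr9:118387330-118395250. It had the most TSS peaks of the 6 genes in both libraries. The 5 WT peaks lay 210 bp upstream and 133, 194, 361 and 424 bp downstream of the nearest of its 3 annotated TSSs. The 4 KO peaks lay 236 and 110 bp upstream and 224 and 358 bp downstream. Every peak of this cluster was in an exon of Eomes, in UTR sequence for 1 WT and 2 KO peaks and in coding sequence for the others. Only the WT peak at 133 bp (chr9:118388062-118388162) had no partner, and the nearest KO peak was 225 bp from it by their middles, with a gap of 124 bp between their ends that was just over the limit. The closest match was between the WT peak at 361 bp and the KO peak at 358 bp, which were 3 bp apart.

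Beyond its 3′ end, Eomes had KO peaks without a WT partner 9577 bp (chr9:118397506-118397606) and 10223 bp (chr9:118398152-118398252) from the TSS. A shared intergenic position followed at 10926 bp in WT and 10974 bp in KO. The KO peak at 9577 bp stood at 48.5% of the name numbers, in a decile in which 20.0% of all KO peaks had no partner, and the nearest WT peak was 1349 bp away. The other KO peak stood in the eighth decile, where 42.7% had none. Their GC content, 51.5% and 49.0% in the central 200 bp, was below that of each peak in the Eomes exon, which ranged from 64.5% to 79.0%. The remaining peaks of the window, 2 in each library and all with a partner, were at the TSS of Golga4. The sequence given is the KO peak that stands earlier in the list, on the plus strand.
Eomes downstream, KO, chr9:118397506-118397606: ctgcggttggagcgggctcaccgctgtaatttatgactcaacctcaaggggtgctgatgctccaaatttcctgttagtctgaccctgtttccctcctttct

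Tbx6, the T-box factor that specifies presomitic mesoderm at the expense of neural fate, lies on the plus strand at chr7:133924997-133929074 in a window with the TSSs of 8 other protein-coding genes. It was the regulator with the most peaks and the only one with no unpartnered peak in either library. Just 1 WT and 1 KO peak had the TSS of Tbx6 as their nearest. They lay 1334 and 1321 bp upstream, 13 bp apart, in an exon of the neighbouring gene Ypel3 annotated as UTR. The other peaks within the window were mostly at the TSSs of Mapk3, Ypel3 and Gm9967, Ppp4c, Aldoa and 4930451I11Rik. At Ppp4c alone there were 6 WT and 4 KO peaks within 2 kb of the TSS. Shared peaks more than 2 kb from any protein-coding TSS lay 26444 bp (WT) and 26405 bp (KO) upstream of Tbx6 and 27709 bp (WT) and 27734 bp (KO) downstream.

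Mixl1, a paired-type homeobox factor of the primitive streak that acts in endoderm and mesoderm patterning, lies on the minus strand at chr1:182623174-182627165. Its TSS counted as having a peak in both libraries, but at separate positions. The WT peaks lay in coding exon sequence 72 bp (chr1:182627043-182627143) and 378 bp (chr1:182626737-182626837) downstream of the TSS. The KO peak lay in an intron 1211 bp downstream (chr1:182625904-182626004), 833 bp from the nearest WT peak. None of these 3 peaks had a partner. The WT peak at 378 bp stood at 41.1% of its name numbers, in a decile in which 27.1% of all WT peaks had no partner, which was the lowest position among the 11 unpartnered WT peaks of the windows. The KO peak stood at 62.2%, in a decile with 33.3%.

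Sequence differed between these positions of Mixl1. In the central 200 bp the WT peaks had 72.5% and 64.5% GC with 21 and 18 CpGs, while the KO peak had 49.0% GC and 1 CpG. Repeats were not annotated, so whether the KO peak and its motif matches lie in a repeat copy was not tested. The sequences are those of the WT peak at 378 bp and of the KO peak, 5′ to 3′ on the minus strand, with a Tcf and Lef match in capitals.
Mixl1 coding exon, WT, chr1:182626737-182626837: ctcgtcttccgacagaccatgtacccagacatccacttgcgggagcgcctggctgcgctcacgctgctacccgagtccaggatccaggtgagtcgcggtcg
Mixl1 intron, KO, chr1:182625904-182626004: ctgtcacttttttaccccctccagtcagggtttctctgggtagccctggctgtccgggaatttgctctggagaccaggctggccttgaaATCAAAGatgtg
Upstream of Mixl1, a WT peak 23420 bp from the TSS had no KO partner, and at the TSS of Acbd3, farther upstream, 1 WT and 3 KO peaks were all partnered.

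Gsc (goosecoid), the homeobox repressor of the anterior streak and node, lies on the minus strand at chr12:105709419-105711537. The libraries shared a peak at its TSS, 40 bp downstream in WT (chr12:105711447-105711547) and 3 bp downstream in KO (chr12:105711484-105711584), in exon sequence annotated as UTR. A WT peak in coding exon sequence 329 bp downstream (chr12:105711158-105711258) had no KO partner, and the nearest KO peak was 326 bp away. This peak had the most CpGs of all 81 peaks in the windows, 32 in its central 200 bp. Its name number stood at 88.5%, in a decile in which 60.9% of all WT peaks had no partner. Both WT peaks and the KO peak also lay within 2 kb of the TSS of the divergent neighbour Gm10000.

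Downstream of Gsc, the libraries shared 3 intergenic positions. The nearest was at 24958 bp in WT and at 24943 and 25037 bp in KO. The middle one was at 39991 bp in WT and at 39928 and 39987 bp in KO, and the farthest at 46222 and 46299 bp in WT and at 46217 bp in KO. The middle and the farthest were closer to the TSS of Serpina3n than to that of Gsc, at 26607 and 20376 bp from it in WT. The WT peaks of the nearest and the farthest were left out in lists of equal length, and only the middle position then stayed shared. It was the one with the lowest name numbers, at 43.7% in WT and at 32.6% and 40.4% in KO. A KO peak without a partner followed at 50110 bp, also closer to Serpina3n (16488 bp), and a WT peak without a partner lay 34907 bp upstream. The sequences show the unpartnered WT peak of the coding exon and the middle one of the shared peaks, 5′ to 3′ on the minus strand. They are in lower case because neither holds any of the motifs searched.
Gsc coding exon, WT, chr12:105711158-105711258: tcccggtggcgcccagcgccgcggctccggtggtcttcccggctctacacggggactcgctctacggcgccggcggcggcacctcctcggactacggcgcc
Gsc downstream, WT and shared, chr12:105671496-105671596: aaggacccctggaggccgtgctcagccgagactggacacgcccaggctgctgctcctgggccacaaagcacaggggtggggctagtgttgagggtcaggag

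Mesp1, the basic helix-loop-helix factor of nascent mesoderm and of the precursors of the heart, lies on the minus strand at chr7:86937127-86938674. Its TSS peak in WT was in the intron, 973 bp downstream (chr7:86937651-86937751), and the nearest KO peak was 12095 bp away. That peak stood at 54.7% of its name numbers, in a decile in which 39.0% of all WT peaks had no partner. Further WT peaks without a partner lay 5938 bp (chr7:86944562-86944662) and 24672 bp (chr7:86963296-86963396) upstream. Of 4 WT peaks in the window, the only one with a partner lay 12994 bp downstream, in an intron of Wdr93, where the KO peak was at 13068 bp. That WT peak was left out in lists of equal length, and no peak of the window then had a partner. The remaining KO peak, 21514 bp downstream in an intron of the same gene, had no partner. Anpep, which has a TSS in the window, had 2 WT and 2 KO peaks within 2 kb of a TSS, but these lay outside the window. The sequence is that of the intronic WT peak, 5′ to 3′ on the minus strand, and holds none of the motifs searched.
Mesp1 intron, WT, chr7:86937651-86937751: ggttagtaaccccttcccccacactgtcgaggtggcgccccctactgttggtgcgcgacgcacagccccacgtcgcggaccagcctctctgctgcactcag

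**Figure D3:**
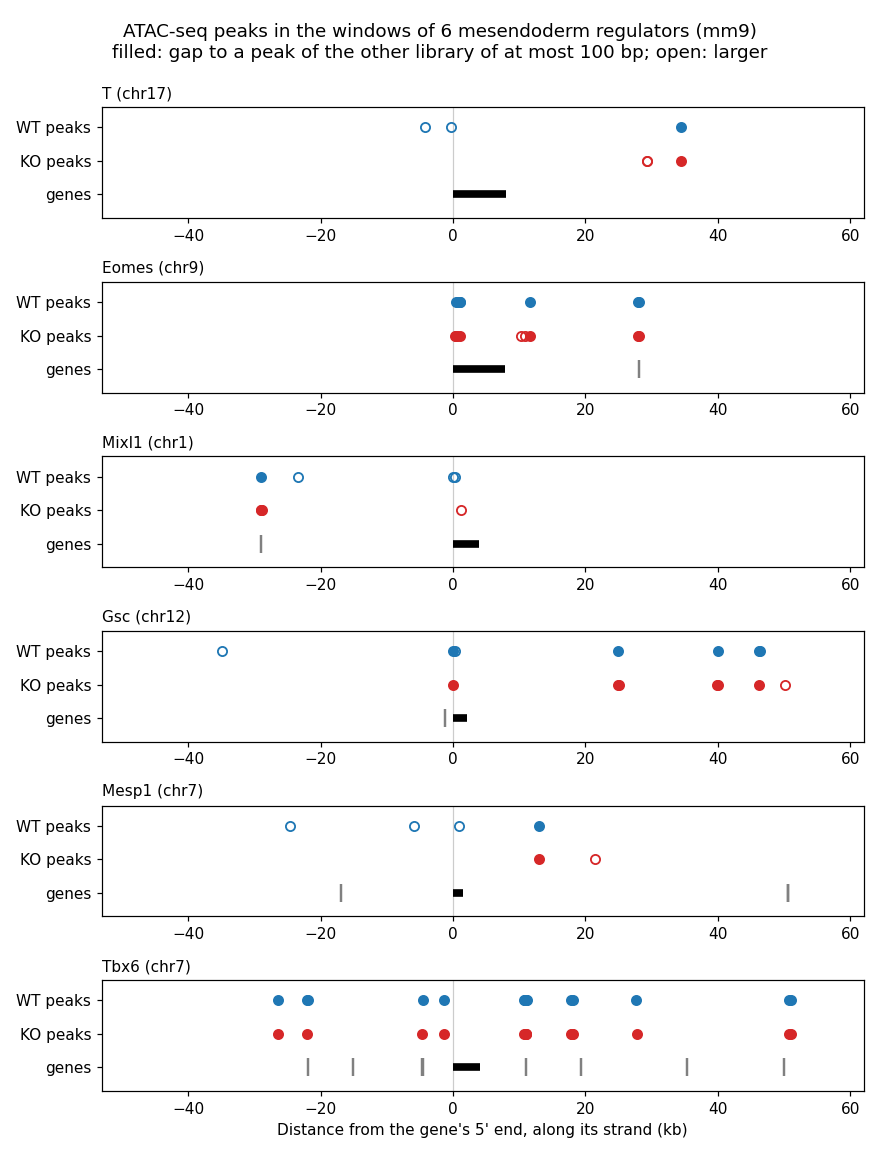
Positions of WT (blue) and KO (red) ATAC-seq peaks in the windows of the 6 regulators in mm9, in kb from the gene's 5′ end along its strand. Black bars are the regulators, grey ticks are the 5′ ends of other protein-coding genes, and points mark the middles of peaks, filled where the gap to a peak of the other library was at most 100 bp between their ends and unfilled where it was larger. All points at Tbx6 are filled, while 3 of 4 WT peaks at Mesp1 and 3 of 4 at Mixl1 are unfilled.

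By position, the peaks of the windows fell into those at the regulators' own TSSs, those at the TSSs of other genes and those more than 2 kb from any protein-coding TSS. At the TSSs of other genes there were 16 WT and 16 KO peaks, and 0 of 16 had no partner in each library (interval 0 to 20.6%), beside 25.6% of all WT and 8.91% of all KO peaks within 2 kb of a protein-coding TSS. Most of them belonged to the Tbx6 window, and the rest were at Golga4 and Acbd3. Several overlapped or adjoined each other, as among the 6 WT peaks at Ppp4c, so they are not independent counts. Away from TSSs, 5 of 14 WT peaks had no KO partner (35.7%, interval 12.8 to 64.9%), beside 38.6% of all WT peaks so placed. Of the 16 KO peaks away from TSSs, 6 had no WT partner (37.5%, interval 15.2 to 64.6%), beside 37.5% of all such KO peaks. Peaks with a partner sat a median of 26.0 bp from it in either library, beside 19.0 bp for all WT peaks and 17.0 bp for all KO peaks with a partner.

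Base composition differed with the position of the peaks. Over the central 200 bp, the median GC content was 64.2% for the 42 WT peaks and 58.5% for the 39 KO peaks, beside 59.5% and 56.5% for the whole lists. The 12 WT peaks at the TSSs of the 6 genes had a median of 71.5% and the 7 KO peaks 64.5%, while all peaks within 2 kb of a protein-coding TSS had 66.0% in WT and 65.0% in KO. The 11 WT peaks without a partner had a median of 64.0% GC and 12 CpGs, and the 7 KO peaks without a partner had 50.5% and 4 CpGs. The same direction held over the whole lists, where WT peaks without a partner had 58.0% GC and 7 CpGs and KO peaks without a partner 49.5% and 2. The central 31 bp of each of the 81 peaks occurred at 1 place only in the genome, on either strand. Only exact copies were counted and repeats were not annotated, so this does not show whether a peak lies in a diverged repeat copy.

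Only the motifs named here were searched, on both strands in the central 200 bp. The T-box motif AGGTGTGA was in 0 of 42 WT and 0 of 39 KO peaks of the windows, and in 0.649% of all WT and 0.743% of all KO peaks. The Foxh1 motif AATCCACA, bound by the partner of Smad2 in Nodal signalling, was likewise in 0 peaks of either library, against 0.412% and 0.485% of the lists. The Tcf and Lef motif CTTTGAT of Wnt signalling was in 1 WT peak and 2 KO peaks, against 1.73% and 2.09% of the lists. These were the shared peaks upstream of Tbx6 and the intronic KO peak of Mixl1, which also held the only homeodomain motif TAATCC of the windows, present in 3.75% of all WT and 4.71% of all KO peaks. The Oct4 octamer ATGCAAAT was in 1 peak of each library, the shared pair between Ypel3 and Gm9967 in the Tbx6 window, against 1.58% and 1.95% of the lists. The matches upstream of Tbx6 and the homeodomain match lay in the central 200 bp but outside the listed peaks, and in the listed peaks alone 1 WT and 2 KO peaks held any motif, in place of 2 and 3. A match describes the letters only, and binding was not measured. The WT peak with the octamer is given on the plus strand, with the motif in capitals as it reads on that strand.
Tbx6 window, WT, chr7:133920364-133920464: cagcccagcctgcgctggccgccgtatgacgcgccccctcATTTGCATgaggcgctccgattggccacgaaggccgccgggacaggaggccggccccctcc

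The 28 other genes of the primitive streak and early mesoderm were read in the same way. A WT peak lay at the TSS of 24 and a KO peak at the TSS of 18, beside 63.6% and 58.7% of all protein-coding genes, and all of the 18 also had a WT peak. They had 79 WT and 47 KO peaks at their TSSs, with more WT peaks at 16 genes and more KO peaks at 2, beside 33.2% and 13.0% of all genes. In windows of 50 kb they held 280 WT and 205 KO peaks, with more WT peaks at 21 genes and more KO peaks at 5, beside 56.7% and 23.3%. In the full lists, 6 of the 24 genes with a WT peak at the TSS had no KO peak there, as did T and Mesp1, beside 10.4% of all genes with a WT peak at the TSS. With lists of equal length, 3 of 21 genes did, Wnt3a, Fgf8 and Lefty2, beside 8.78%. The list then had 69 WT and 47 KO peaks at its TSSs, with more WT peaks at 13 genes and more KO peaks at 3, beside 28.2% and 15.5% of all genes. In the windows it then had 249 WT and 205 KO peaks, with more WT peaks at 18 genes and more KO peaks at 7, beside 44.0% and 33.5%.

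All 7 signal effectors and receptors of the list had TSS peaks in both libraries, as did 57.0% of all protein-coding genes. Of the 5 ligands, 2 had a WT peak and no KO peak, beside 6.64% of all genes. Wnt3a, a Wnt ligand of the streak and tail bud, had 2 WT peaks at the TSS, and its nearest KO peak was 3107 bp upstream. Fgf8, which is needed for cells to leave the streak, had 3 WT peaks, and its nearest KO peak was 6716 bp upstream. Of the 3 secreted inhibitors, Lefty2, an inhibitor of Nodal, had a WT peak 33 bp downstream of the TSS and a nearest KO peak 4074 bp upstream. Cer1, which blocks Nodal and Bmp ligands, had no TSS peak in either library, with the nearest 25388 bp (WT) and 25344 bp (KO) away.

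Among the 13 transcription factors, 7 had TSS peaks in both libraries, 3 in WT alone and 3 in neither, beside 57.0%, 6.64% and 34.6% of all genes. The 3 with a WT peak alone, Evx1, Hand1 and Cdx2, had no TSS peak in either library with lists of equal length. Evx1, a homeobox factor of the posterior streak, had 1 WT peak 1385 bp downstream of the TSS and a nearest KO peak 7402 bp upstream. Hand1, of lateral and extraembryonic mesoderm, had 1 WT peak 4 bp upstream and a nearest KO peak 30562 bp away. Cdx2, of posterior mesoderm and trophectoderm, had 1 WT peak at 602 bp, and its nearest KO peak, at 2205 bp, fell just beyond the 2 kb limit. Msgn1, a target of Wnt signals in presomitic mesoderm, had its nearest peaks at 10203 bp (WT) and 10133 bp (KO). Mesp2, the neighbour of Mesp1 that acts in somite segmentation, had its nearest WT peak at 7733 bp, the same peak that lay 24672 bp upstream of Mesp1, and its nearest KO peak at 30007 bp. Foxc2, a forkhead factor of paraxial mesoderm, had its nearest WT peak 2736 bp upstream and its nearest KO peak 9244 bp downstream, with 11 WT peaks and 1 KO peak in its window. The window of Fgf8 went the other way, with 8 WT and 11 KO peaks, and was among the 5 of 28 with more KO peaks.

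Of a list of neuroectoderm genes, 7 were found in the annotation, and 4 of them had TSS peaks in both libraries and 3 in neither, beside 57.0% and 34.6% of all protein-coding genes. These 7 genes had 22 WT and 15 KO peaks at their TSSs, also with lists of equal length, and in the full lists 77 WT and 55 KO peaks in their windows.

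Markers of ESCs and of other cell types were read as TSS peaks, which mark accessible chromatin and not expression. Of 8 ESC markers, all 8 had a WT peak and 7 a KO peak, the exception being Dppa4, beside 63.6% and 58.7% of all protein-coding genes. Together they had 35 WT and 27 KO peaks at their TSSs. Tdgf1, with 8 WT and 5 KO peaks, is counted both there and among the 28 streak and mesoderm genes. Of 7 markers of MEF feeders, Col1a1, Col1a2 and Thy1 had peaks in both libraries and Col3a1, Twist2, Postn and Lum in neither, with 7 WT and 6 KO peaks in all. The shares of all protein-coding genes were 57.0% for both libraries and 34.6% for neither. Of 4 endoderm markers, Sox17, Gata4 and Sox7 had peaks in both libraries and Afp in neither, with 6 WT and 3 KO peaks. The part of feeder cells or of differentiated cells in the peaks of the 6 regulators was not tested.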

How the data were processed

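ATAC-seq peak lists of 1 WT and 1 Uhrf1 KO library were analysed. According to the methods and processing notes of the study, reads were mapped to mm9 with Bowtie2 2.1.0 and fragments below 150 bp were kept. HOMER 4.9.1 is named without its role, and the peak caller and threshold are not given in the sources used here. The deposited score does not vary between peaks and was not used.

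Positions were set against GENCODE vM1 and the NCBIM37 genome, both on the build of mm9, with Python 3.11.15, numpy 2.4.6, scipy 1.17.1 and pysam 0.24.0, and drawn with matplotlib 3.10.9. The overlap routine was tested on simulated data. Genes named with their peaks were the 6 regulators, other genes of their windows with peaks at a TSS or in an intron, Uhrf1, listed streak and mesoderm genes with a TSS peak in 1 library or in neither, the markers of feeders and endoderm, and the ESC markers that lacked a KO peak or stood in 2 lists. Serpina3n was named as the nearest protein-coding TSS to some peaks of the Gsc window. Members and lists were chosen with earlier results of these data known. Of the lists, 1 neuroectoderm gene was not matched by symbol and was not analysed here. Alternatives covered overlap, window, TSS distance, merging of peaks, list length and sequence length.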

Additional observations from a re-analysis of the deposited data

How the results depend on the processing

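No paired analysis was possible because there was 1 library of WT and 1 of KO cells. With at least 50% of both peaks shared, 47.6% of WT and 41.0% of KO peaks in the windows had no partner, beside 50.2% and 42.4% of all peaks. With only peaks nearest to the regulator's own TSS, the values were 44.4% of 18 WT and 35.3% of 17 KO peaks, beside 32.1% and 24.6% of all peaks at the 100 bp gap. Windows of 10 kb held 22 WT and 15 KO peaks and windows of 100 kb held 79 and 70. Leaving out each regulator in turn was chosen after seeing the data. Without Tbx6, 26 WT and 25 KO peaks were left, and 42.3% of the WT peaks had no partner (interval 23.4 to 63.1%). Within 1 kb of a TSS, 2 regulators had a KO peak, as did 56.4% of all protein-coding genes. Each of these settings changes which peaks are counted or what counts as a partner. Other overlap, merging and list-length settings left the percentages within the intervals of the main values, although equal list lengths turned the order of the libraries (16.7% in WT and 28.2% in KO). Merging neighbouring peaks of a list left 31 WT and 28 KO peaks in the windows, and 32.3% and 21.4% of these had no partner. Equal list lengths were added for the next 3 counts once the data had been seen. WT peaks at the regulators' TSSs fell from 12 to 7, regulators with a WT and no KO peak there from 2 to 1, and listed streak and mesoderm genes with such a TSS from 6 to 3. Numbers of TSSs with a peak otherwise stayed within 1.5 times of the main count. For single windows and for GC content and motifs, 32 of the values moved and 32 did not, most of the moves coming with the window size.

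Each window held few peaks, so the intervals are wide. The lists do not give the reads behind a peak, and a missing peak does not show that chromatin was closed.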
